A study of Mus musculus with 2 samples.

Results

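Open chromatin far from genes was described in the ovary of aged mice. A site counted as lying in a gene desert if it was an autosomal peak found in both libraries (overlap of at least 1 bp), its midpoint lay outside every protein-coding gene body of GENCODE M21, and it was over 200 kb from every protein-coding transcript start. The rule used position and presence in both libraries, and no measured strength. It gave 2642 sites among 63280 shared autosomal regions, or 4.18%. They are set beside 18612 shared intergenic regions that lay 2 to 200 kb from a start, called nearer intergenic regions below, and beside all shared autosomal regions.

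The study measured whole ovary of adult female B6CASTF1/J mice, the F1 cross of the strains C57BL/6 and CAST, aged 18 to 20 months. Its assay was DNase-seq, in which DNase I cuts accessible DNA and the cut ends are sequenced. A single group held 2 libraries, labelled biological replicates 1 and 2, and no other age, tissue or treatment was measured. Both share a donor entry but have a biosample entry each, and no source used here says if 2 animals were taken. The spread between them may therefore be technical.

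Gene deserts are long stretches of the genome without protein-coding genes. They can hold enhancers, DNA elements to which transcription factors bind and that act on promoters over long distances, as well as sites of CTCF, a zinc finger protein that anchors chromatin loops. Deserts often flank genes of developmental transcription factors, and the nearest gene is not always the one that an enhancer acts on. In whole tissue, fewer cells with an open site and less opening in each cell cannot be told apart.

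The sequences of the strongest sites come first, and they do not stand for all desert sites. The 3 sites without a near-identical copy that had the highest mean rank over both libraries were printed from GRCm38.p6 on the plus strand, with capitals on bases inside footprints of both libraries. A footprint is a short stretch that the authors found protected from cutting. The first is chr12:29291041-29291340, between Eipr1 and Myt1l, with 45 bases in capitals. The next is chr16:25059261-25059500, between Lpp and Tprg, with 67, and the last is chr1:7397941-7398240, between Pcmtd1 and Sntg1, with 105. Over the whole regions, the GC content of these 3 was 56.5%, 59.6% and 64.1%, against a median of 49.2% over all desert sites.
Eipr1 to Myt1l: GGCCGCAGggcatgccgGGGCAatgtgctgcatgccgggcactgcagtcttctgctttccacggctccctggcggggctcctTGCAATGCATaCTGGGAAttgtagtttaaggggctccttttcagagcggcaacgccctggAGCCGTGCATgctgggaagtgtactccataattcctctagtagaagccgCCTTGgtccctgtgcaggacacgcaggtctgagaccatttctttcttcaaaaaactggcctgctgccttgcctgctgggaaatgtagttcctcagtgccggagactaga
Lpp to Tprg: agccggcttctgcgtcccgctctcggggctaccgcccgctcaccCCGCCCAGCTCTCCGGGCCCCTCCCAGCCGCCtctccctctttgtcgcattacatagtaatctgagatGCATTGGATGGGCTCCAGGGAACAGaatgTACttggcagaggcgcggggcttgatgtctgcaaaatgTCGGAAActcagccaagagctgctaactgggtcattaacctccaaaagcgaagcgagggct
Pcmtd1 to Sntg1: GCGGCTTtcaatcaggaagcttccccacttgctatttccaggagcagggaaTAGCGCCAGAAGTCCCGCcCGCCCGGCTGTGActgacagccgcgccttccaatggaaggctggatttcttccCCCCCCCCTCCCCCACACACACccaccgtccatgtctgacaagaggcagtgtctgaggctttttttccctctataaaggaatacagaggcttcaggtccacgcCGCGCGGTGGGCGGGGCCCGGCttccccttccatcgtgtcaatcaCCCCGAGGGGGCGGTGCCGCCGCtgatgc

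A further 6 sequences show matches to known binding sequences, with the centre of each match in footprints of both libraries. Each comes from the highest-ranked site with such a match, among sites without a near-identical copy. They are 100 bases on the plus strand of GRCm38.p6, with capitals on the match, which reads on the minus strand for CTCF, TEAD and RUNX. The CTCF match lay at chr16:25064706-25064805 (Lpp to Tprg). The NR5A match, a sequence of the steroidogenic factor SF-1 and its relative LRH-1, lay at chr10:17411460-17411559 (Nmbr to Cited2). A GATA match lay at chr5:133488057-133488156 (Auts2 to Castor2), a TEAD match at chr3:148429673-148429772 (Ttll7 to Adgrl2) and a RUNX match at chr7:40258520-40258619 (Zfp619 to Vstm2b). The estrogen response element lay at chr9:61675500-61675599 (Tle3 to Rplp1) and consists of the half-sites GGTCA and TGACC, 3 bases apart. The half-site TGACC and the 3 bases after it also read as the NR5A sequence CAAGGTCA on the minus strand. The same site holds FOX and RUNX matches as well. The signals in replicates 1 and 2 were 3.75 and 2.20 at the CTCF site, 2.52 and 2.03 at the RUNX site, 1.33 and 1.22 at the estrogen response element, 1.09 and 0.735 at the TEAD site and 0.958 and 0.571 at the GATA site. Of 96 forkhead (FOX) matches at desert sites, 0 lay in footprints of both libraries. The shares were also low elsewhere, at 5 of 680 (0.735%) in nearer intergenic and 16 of 1872 (0.855%) in all shared regions. Such matches were few for other sequences too, at 4 of 487 for GATA (0.821%) and 1 of 117 for TEAD (0.855%). For RUNX they were 6 of 180 (3.33%) and for NR5A 22 of 188 (11.7%). Over all shared regions the shares of these 4 were 1.59%, 3.28%, 4.84% and 16.7%.
CTCF: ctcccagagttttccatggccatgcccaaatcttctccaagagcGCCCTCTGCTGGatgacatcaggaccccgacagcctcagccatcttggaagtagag
NR5A: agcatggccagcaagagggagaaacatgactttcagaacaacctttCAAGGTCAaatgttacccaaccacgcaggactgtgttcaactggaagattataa
GATA: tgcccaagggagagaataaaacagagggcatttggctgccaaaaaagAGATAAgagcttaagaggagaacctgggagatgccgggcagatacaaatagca
TEAD: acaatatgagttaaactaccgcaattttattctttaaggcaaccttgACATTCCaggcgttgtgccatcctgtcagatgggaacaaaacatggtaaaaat
RUNX: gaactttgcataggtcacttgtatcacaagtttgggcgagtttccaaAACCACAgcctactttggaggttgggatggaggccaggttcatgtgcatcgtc
Estrogen response element: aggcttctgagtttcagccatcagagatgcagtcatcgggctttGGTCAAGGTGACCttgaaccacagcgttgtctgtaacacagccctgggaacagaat

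Open sites were sparse in deserts, and became sparser with distance. The 508.9 Mb of desert sequence made up 21.2% of the autosomes and held 5.19 sites per Mb. Nearer intergenic sequence held 21.6 shared regions per Mb, and the autosomes outside deserts held 32.1, which is 6.19 times the desert value. Density fell in each successive bin of distance, from 28.7 per Mb at 2 to 10 kb over 13.6 at 100 to 200 kb to 7.53 at 200 to 500 kb, 2.68 at 500 to 1000 kb and 1.24 beyond 1000 kb. The median site lay 318 kb from the nearest start, 500 sites (18.9%) lay over 500 kb away, and 88 lay over 1000 kb away. These densities are counts of regions without a test.

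**Figure D1:**
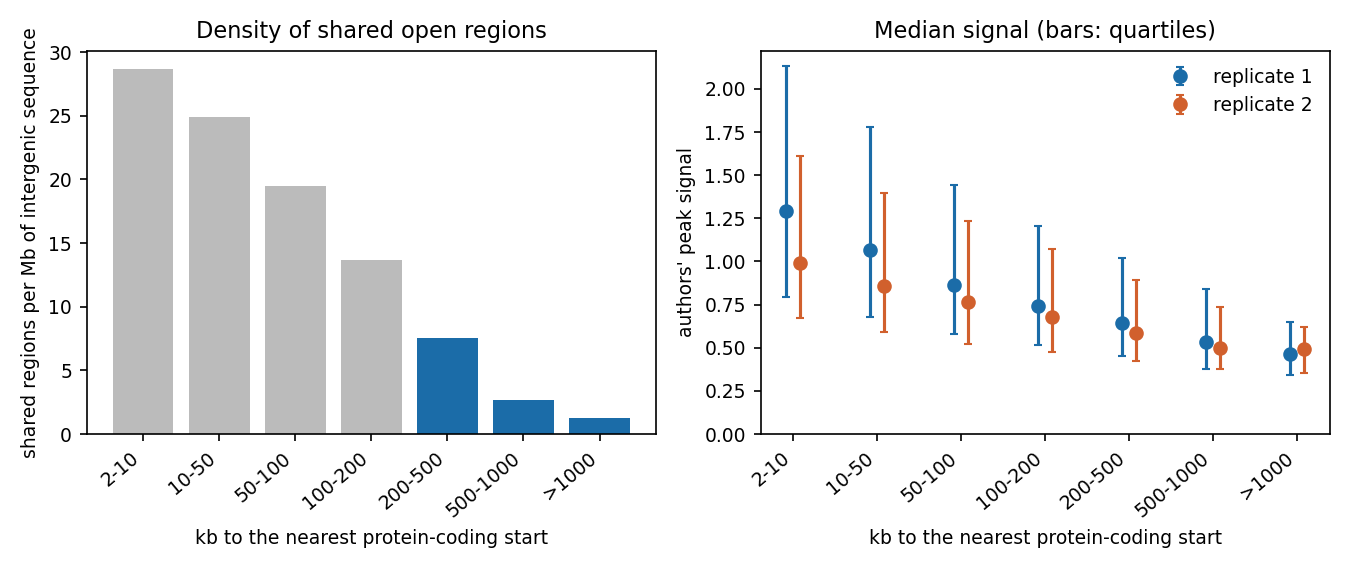
Left, shared regions per Mb of intergenic sequence in bins of distance to the nearest protein-coding start, with the 3 desert bins in blue. Right, the median of the authors' peak signal in each bin and library, with bars from the lower to the upper quartile. Density fell from 28.7 to 1.24 per Mb, and the median signal of replicate 1 from 1.29 to 0.463.

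Desert sites were also weaker. Their median signal, the authors' depth-scaled strength of the strongest peak in a region, was 0.624 in replicate 1 and 0.563 in replicate 2 (mean 0.594 ± 0.0436, SD, n = 2). Nearer intergenic regions had medians of 1.00 and 0.836 (0.919 ± 0.117), and all shared regions 1.13 and 0.985 (1.06 ± 0.103). Both libraries were under 1 at 1868 desert sites (70.7%), against 43.7% of nearer intergenic and 38.8% of all shared regions. They were over 2 at 77 desert sites (2.91%), against 10.1% of nearer intergenic and 21.5% of all shared regions. Beyond 1000 kb the medians were 0.463 and 0.492. The median width of a desert site was 211.5 bp, close to the 220 bp of all shared regions.

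Fewer desert peaks were found in both libraries. Of 4858 desert peaks in replicate 1, 2674 overlapped a peak of replicate 2 (55.0%). The share was 66.1% for nearer intergenic and 69.1% for all autosomal peaks of that library. Of 4019 desert peaks in replicate 2, 2666 overlapped a peak of replicate 1 (66.3%), against 77.4% and 78.8%. The mean of both directions was 60.7% ± 7.98 (SD, n = 2). Regions seen in 1 library only were weak, with a median signal of 0.323 at the 2182 of replicate 1 and 0.301 at the 1352 of replicate 2. Absolute depth is unknown, so an absent peak in one library is not shown to be a closed site.

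Within the shared sites, the libraries ranked desert sites alike, with a Spearman coefficient of 0.720, given as a description over 2642 sites that share both libraries. It was 0.755 for nearer intergenic and 0.858 for all shared regions. Stricter criteria were met less often. A peak of the authors' shorter lists was present in both libraries at 1320 desert sites (49.96%), against 63.5% of all shared regions. Footprints lay in both libraries at 1637 (62.0%, 95% exact binomial interval 60.1 to 63.8), against 77.6%. The intervals cover counting over regions only.

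A few desert sites were strong. Both libraries exceeded 5 at 8 sites, and the highest signals were 14.7 in replicate 1 and 13.5 in replicate 2, against 62.3 and 42.3 over all shared regions. The highest-ranked site, chr8:20122141-20122320, lay between the predicted genes Gm31371 and Gm15319 and had a signal of 14.7 in replicate 1 and 10.6 in replicate 2. It has 5 near-identical copies in the genome, so its reads cannot be assigned to it with certainty. Next came the Eipr1 to Myt1l site printed above (whole region chr12:29291021-29291360), with 8.22 and 13.5. Myt1l encodes a zinc finger factor known from neurons, and its start lay 237 kb away. The Lpp to Tprg site had 10.3 and 9.85, and Lpp encodes a protein of cell adhesion sites. At the Pcmtd1 to Sntg1 site (chr1:7397861-7398320), which lies within the long noncoding RNA gene Gm26901, the values were 8.31 and 9.40. Among these, the libraries were closest at the Lpp to Tprg site.

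Of the other 6 of the 10 highest-ranked sites, 5 are described here. A site at chr13:107831301-107831500 between Kif2a and Ndufaf2 had 6.32 and 7.12. It lies in Zswim6, which GENCODE M21 lists as a processed transcript and RefSeq as protein-coding, so it is a desert site only under the rule's annotation. Between Lrig3 and Atp23, chr10:126511601-126511820 had 5.83 and 9.20, and between Robo1 and Robo2, which encode axon guidance receptors, chr16:73471621-73471800 had 5.92 and 6.60. The site chr1:102628161-102628320 between Cntnap5b and Cdh20 lay 2140.3 kb from any start and had 11.3 in replicate 1 and 4.02 in replicate 2, the largest gap of the 10. It has 2 near-identical copies. The tenth, chr15:62295301-62295560, had 4.95 and 6.10 and lies in Pvt1, the long noncoding RNA gene beside the growth regulator Myc.

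At the far end, 6 sites lay over 2000 kb from a start. The farthest was chr14:91631081-91631260, 2255 kb away, between the protocadherin genes Pcdh20 and Pcdh9, which encode cell adhesion proteins, with a signal of 0.646 and 0.547. The next pair lay between Celf4 and Pik3c3 at 2206 and 2195 kb, with 0.398 and 0.563 at one and 1.03 and 0.774 at the other. At the threshold, the nearest site inside the rule was chr12:3109821-3109920 at 200.1 kb (1.88 and 0.907), left of Rab10 with no gene on its other side. The nearest region outside it was chr9:61714465-61714656 at 199.98 kb between Tle3 and Rplp1 (0.549 and 0.828).

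The number of sites in a gene-free interval ran from 0 to 32. Of 845 intervals with desert sequence, 577 held a site, and 268, with 18.0% of the desert sequence, held none. The median distance from a site to the nearest other shared region was 20.8 kb, against 6.0 kb for nearer intergenic regions, and 37.1% of sites had one within 10 kb. By chromosome, density ran from 3.69 sites per Mb of desert on chromosome 4 to 10.1 on chromosome 13.

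The interval with the most sites was that from Myc to Gsdmc, a gene of the gasdermin family, with 32 sites in 1786 kb (22.5 per Mb of desert). Its signals ran from 0.344 to 4.95 in replicate 1 and from 0.281 to 6.10 in replicate 2, the highest being the Pvt1 site above. Slc4a3 to Epha4, an ephrin receptor gene, held 27 sites, led by chr1:75925841-75926020 (5.45 and 2.97). From Nmbr to Cited2 there were 26, led by chr10:17411341-17411620 (2.93 and 3.49), which holds the NR5A match printed above and also GATA and TEAD matches. Cited2 encodes a transcriptional co-regulator known from gonad and adrenal development. Zeb2 to Acvr2a, which encodes an activin receptor, held 24 sites, led by chr2:45411901-45412120 (2.94 and 2.85), and Agtr1b to Tbl1xr1 held 23, led by chr3:21626141-21626340 (2.66 and 1.39). Here and in the intervals that follow, the leading site is the one with the highest mean rank of signal over both libraries.

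**Figure D2:**
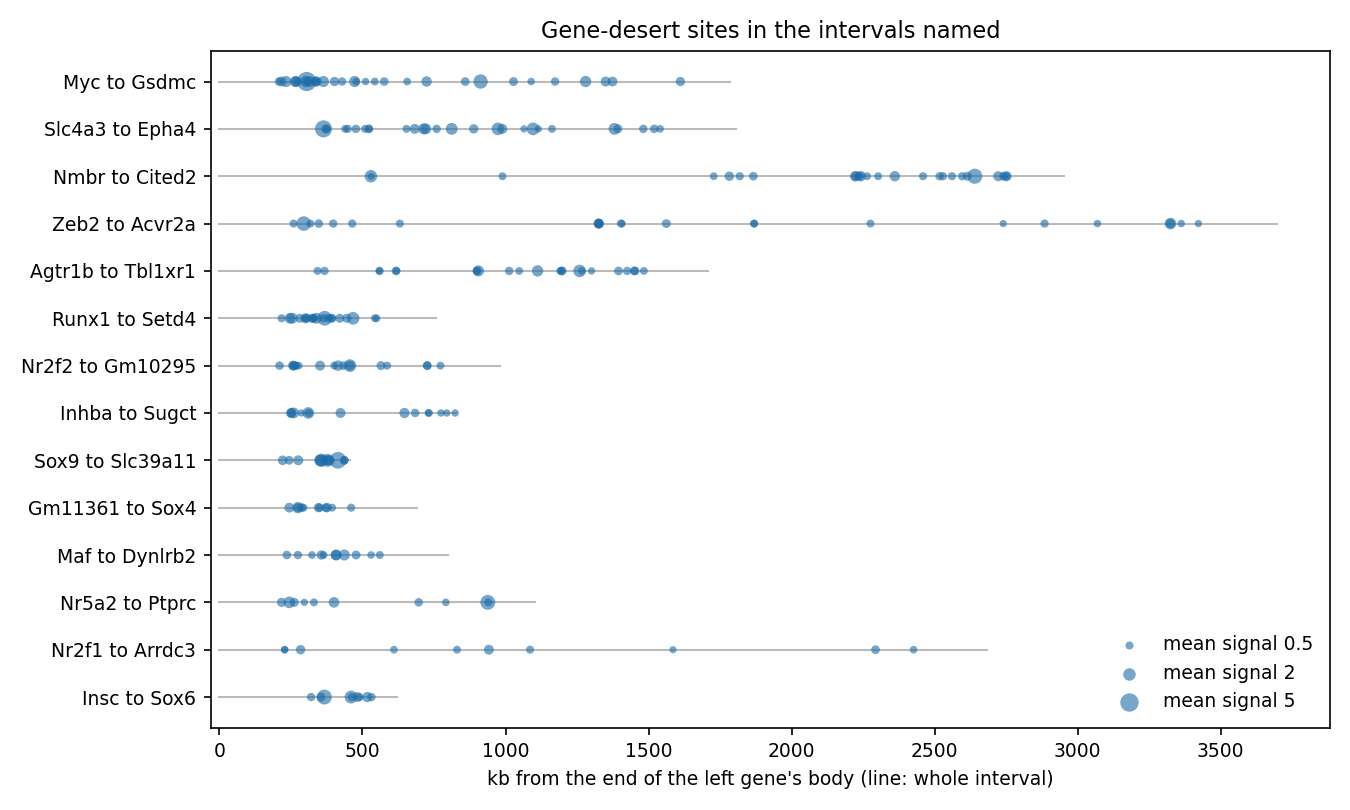
Sites in the 5 intervals with the most sites and in the 10 intervals flanked by a gonad gene with the most sites (Nmbr to Cited2 is in both), placed by distance in kb from the end of the left gene's body. Each line is a whole interval, and dot area grows with the mean signal of both libraries. In Nmbr to Cited2 the median site lies 2283 kb from Nmbr in an interval of 2952 kb.

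Intervals flanked by genes of gonad development and function were looked at with a list of 76 genes, chosen with earlier results of these data known. Of the 75 on autosomes, 32 flank desert sequence, and 29 of those had a promoter peak in both libraries, against 69.3% of all 1461 genes that flank desert sequence. They bound 40 intervals, of which 36 held 231 sites. That is 8.74% of the sites in 3.71% of the desert sequence, or 12.2 per Mb against 5.19 over all deserts. Both flanks had such a promoter peak in 67.5% of these intervals, against 46.9% of all intervals with desert sequence, and the part of this in the density was not tested. Besides Nmbr to Cited2, the fullest was Runx1 to Setd4 with 21 sites at 58.7 per Mb, the highest density among the 10 intervals of the list with the most sites. Runx1 encodes a transcription factor found in granulosa cell precursors, and the strongest site, chr16:93193921-93194240, had 2.39 and 3.67. A stretch of 95.6 kb there held 12 of them.

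Nr2f2 encodes the nuclear receptor COUP-TFII of stromal and theca cells, and its interval to Gm10295 held 18 sites, led by chr7:70822361-70822560 (2.40 and 1.78). Neither flank had a promoter peak in both libraries. Inhba, the activin beta A subunit gene, and Sugct bounded 14 sites, led by chr13:16290901-16291140 (1.26 and 1.48). Sox9 encodes the Sertoli cell factor of the testis, which other cell types also use, and its interval to Slc39a11 held 12 sites at 45.7 per Mb. The strongest, chr11:113201761-113201960, had 4.42 and 3.60. It lay 414 kb from the body of Sox9 and 43.0 kb from that of Slc39a11. The interval's medians of 1.17 and 1.14 were above the 0.624 and 0.563 of all desert sites. The desert on the other side, from Kcnj2 to Sox9, held 7 sites at 5.32 per Mb.

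Of the rest, Gm11361 to Sox4 held 11 sites, led by chr13:28532361-28532560 (1.52 and 1.63), and Maf to Dynlrb2 held 11, led by chr8:116144321-116144540 (1.86 and 1.01). The LRH-1 gene Nr5a2 and Ptprc bounded 10, led by chr1:137898461-137898660 (2.92 and 3.22). That leading site lay 938 kb from the body of Nr5a2 and 164 kb from that of Ptprc. Nr2f1 to Arrdc3 held 10 sites, led by chr13:79141441-79141660 (1.11 and 0.985), at 4.38 per Mb, the lowest density of the 10. Insc to Sox6 held 9, led by chr7:115216901-115217120 (3.57 and 2.63). Which gene, if any, each site acts on was not measured.

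Gene families at the desert borders differed in how many sites lay between them. Intervals with a flank from a transcription factor family, taken by symbol, made up 8.25% of the desert sequence and held 415 sites (15.7%), or 9.88 per Mb, against 4.77 for other intervals. The list of symbols is not complete, so the other intervals also hold flanks that encode transcription factors. Among them are Myc to Gsdmc with 32 sites and Zeb2 to Acvr2a with 24. Among the 500 sites over 500 kb from a start, intervals with a listed family flank held 8.80%, and their share of the sequence at that distance was not computed. Intervals with a flank from a family of cell adhesion, guidance or synapse genes made up 25.04% of the sequence and held 289 sites (10.9%), or 2.27 per Mb. These adhesion intervals were longer, with a median of 1298 kb against 701 kb for all. Promoters of the flanks moved with density too, from 2.45 sites per Mb where no flank had a promoter peak in both libraries over 4.32 with 1 such flank to 6.53 with both. The part of length and promoter state in the family values was not tested.

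**Figure D3:**
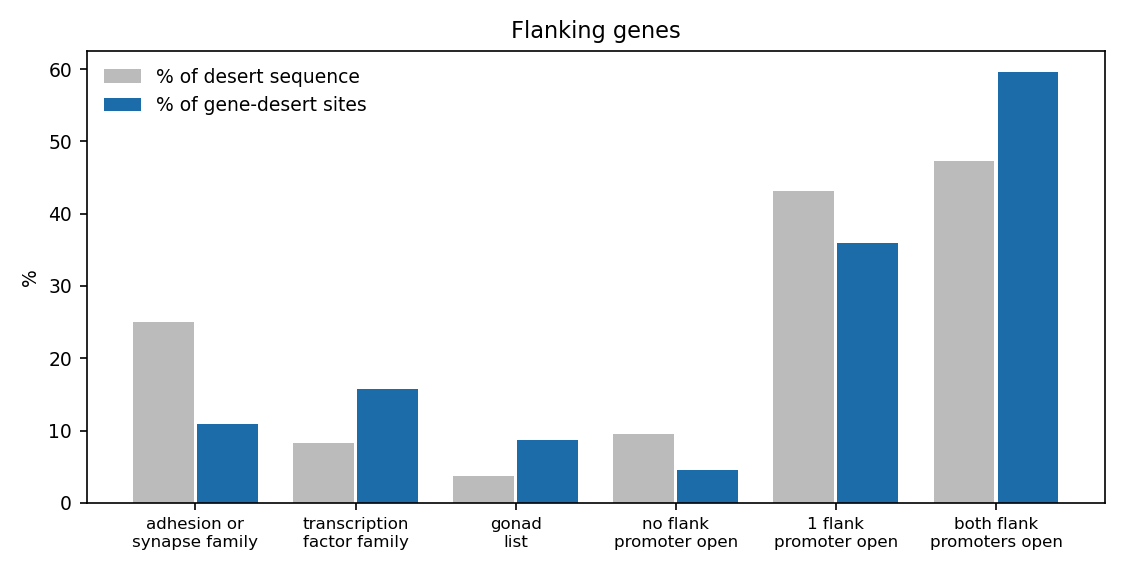
Percent of the desert sequence (grey) and percent of the 2642 sites (blue) in intervals by flanking gene. Intervals with an adhesion family flank hold 25.04% of the sequence and 10.9% of the sites, and those with a transcription factor family flank 8.25% and 15.7%. The 3 classes on the left can overlap, and the 3 on the right add up to all intervals.

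Binding sequences were searched on both strands without mismatch in 200 bp around each midpoint, for 25 sequences in all. A match counted as lying in a footprint if its centre did. CTCF matches were fewer in deserts. They were found at 129 sites (4.88%, exact interval 4.09 to 5.77), against 10.9% of nearer intergenic and 7.34% of all shared regions. By distance the share went from 14.1% at 2 to 10 kb to 4.86% at 200 to 500 kb. Among the CTCF matches of desert sites, 64 of 130 lay in footprints of both libraries (49.2%), against 71.7% in nearer intergenic and 71.1% in all shared regions.

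AP-1 matches (TGANTCA), the sequence of Fos and Jun dimers, were found at a share near that of nearer intergenic regions. They occurred at 374 sites (14.2%, exact interval 12.8 to 15.5), against 13.4% of nearer intergenic regions and 10.2% of all shared regions. Their share was between 11.6% and 15.8% in every bin of distance. Of 426 matches, 21 lay in footprints of both libraries (4.93%), against 4.54% in nearer intergenic and 4.04% in all shared regions. Sites with an AP-1 match had the same median signals as all desert sites, 0.624 and 0.563.

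Of the 25 sequences, 14 were at a higher share of desert sites than of nearer intergenic regions and 11 at a lower one. The exact intervals did not overlap for 5 of the higher and 3 of the lower. The 5 were GATA, SOX, CEBP, homeobox and the estrogen response element, and the 3 were CTCF, SP/KLF and ETS. With sites that have a copy left out of the desert sites only, the interval of the estrogen response element overlapped that of nearer intergenic regions. Among sequences of factors known from ovarian somatic cells, the GATA sequence AGATAA was at 16.5% of desert sites, against 12.9% of nearer intergenic and 9.95% of all regions. NR5A matches (CAAGGTCA) were at 6.81%, against 6.13% and 4.93%. Sequences of SOX factors (AACAATG) were at 3.60%, against 2.51% and 2.07%, and of RUNX factors (TGTGGTT) at 6.51%, against 5.66% and 4.60%. For NR5A and RUNX, the exact intervals of desert sites and nearer intergenic regions overlapped. The forkhead sequence TGTTTAC was at 3.60%, against 3.61% and 2.92%. Other sequences were also at higher shares, among them the CEBP sequence TTGCNNAA at 12.2%, against 10.3% and 8.46%, and the homeobox sequence TAATTA at 3.29%, against 2.32% and 1.77%. Base composition moved with these shares, since the median GC content was 49.2% at desert sites, 52.2% at nearer intergenic and 54.6% at all shared regions. Its part was not tested.

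Sequences known from promoters were at lower shares. The SP/KLF sequence GGGCGGGG was at 1.74% of desert sites, against 3.71% of nearer intergenic and 10.2% of all shared regions, and the ETS sequence CCGGAAG at 1.21%, against 2.07% and 4.78%. NRF1 matched at 2 sites (0.0757%), against 0.150% of nearer intergenic and 0.518% of all shared regions. For NRF1, the exact intervals of desert sites and nearer intergenic regions overlapped. CpG-rich sequence, with a GC content of at least 50% and an observed-to-expected CpG ratio of at least 0.6, made up 2.84% of desert sites, 7.36% of nearer intergenic and 26.5% of all shared regions, which include promoters.

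**Figure D4:**
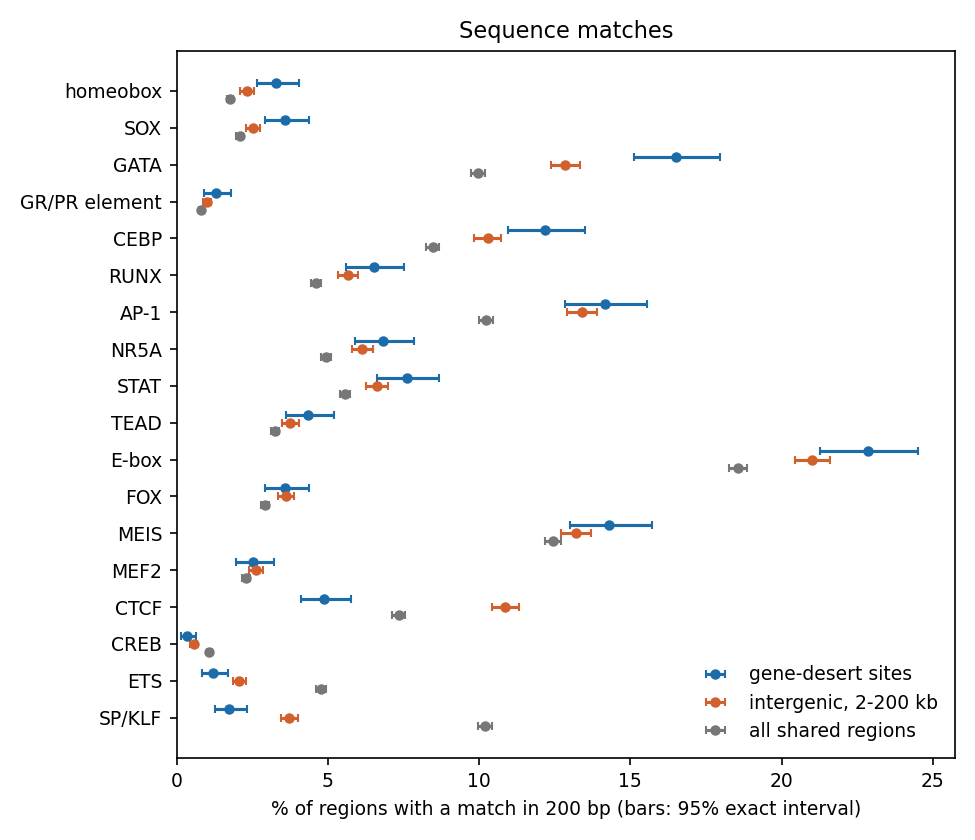
Percent of regions with a match in 200 bp for the sequences matched at 500 or more shared regions, in desert sites (blue), nearer intergenic regions (orange) and all shared regions (grey), with 95% exact binomial intervals. CTCF is at 4.88%, 10.9% and 7.34%, and AP-1 at 14.2%, 13.4% and 10.2%.

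The libraries differed at CTCF matches, among other sequences. At desert sites with a CTCF match the median was 1.17 for replicate 1 but 0.539 for replicate 2, and 122 of 129 were lower in replicate 2. Their median log2 ratio of replicate 2 to replicate 1 was -0.93 (SD 0.48 over sites), against -0.02 (SD 0.55) for desert sites without one. Nearer intergenic regions with a match had a median of -0.93 and all shared regions with one -0.86. Matches of REST, a repressor of neuronal genes, had a median of -0.94 over 153 shared regions, 146 of them lower in replicate 2, and 5 desert sites held one. Of the 212 desert sites that were lower in replicate 2 by over 2-fold, 56 held a CTCF match, and of the 42 that were higher by over 2-fold, 0 did. The libraries are 1 each, so no test of this difference was made, and its cause was not tested.

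**Figure D5:**
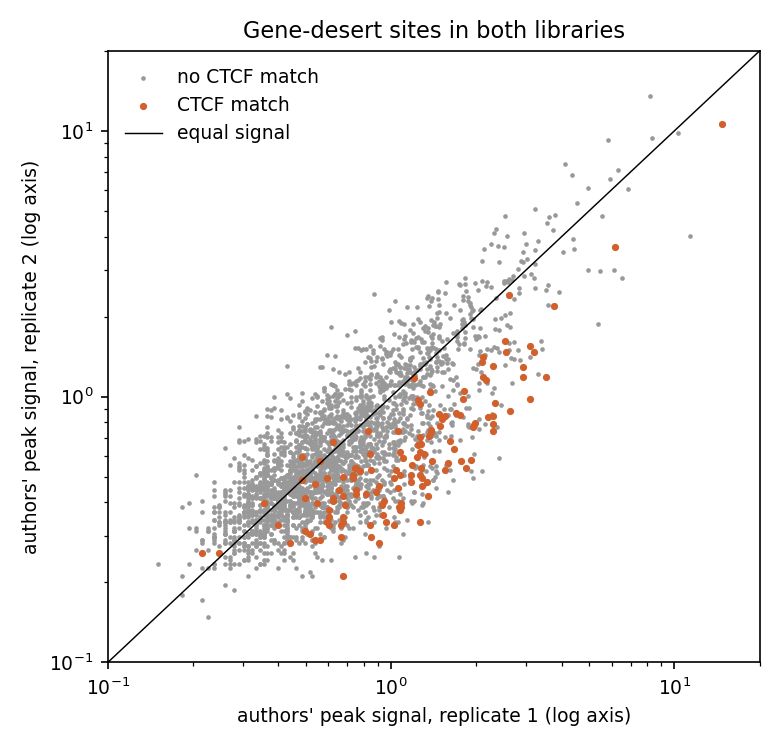
Authors' peak signal of the 2642 desert sites in replicate 1 and replicate 2, both on log axes, with a line of equal signal. Of the 129 sites with a CTCF match (orange), 122 lie below the line.

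The estrogen response element, the palindrome bound by estrogen receptors, was at 21 desert sites (0.795%, exact interval 0.493 to 1.21), against 0.328% of nearer intergenic and 0.232% of all shared regions. Of these, 8 lay in the immunoglobulin kappa locus on chromosome 6, whose variable segments are near copies of each other, and each of the 8 had 10 to 19 near-identical copies. Without all sites that have a copy, 13 of 2519 remained (0.516%, exact interval 0.275 to 0.881). That interval overlaps the one of nearer intergenic regions (0.251 to 0.421), from which copies were not left out. The strongest of the remaining sites outside chromosome 18 was chr1:81897261-81897500 between Nyap2 and Irs1, the gene of an insulin signalling adaptor, with 2.50 and 3.67 and 3 footprints in each library.

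Some desert sites lay at genes of other annotation classes. Antigen receptor segments are not of the protein-coding type in GENCODE, and 19 sites lay within 100 kb of one: 12 at the kappa locus, 2 at the heavy chain locus and 5 at the T cell receptor alpha and delta locus. Of the 12 kappa sites 11 had near-identical copies, and their median signals were low, at 0.350 and 0.430. Another 24 sites lay in 16 genes that RefSeq lists as protein-coding, among them 3 in Dpp10 and 2 each in Ppargc1a, Rad51b, Robo2 and Zswim6. Long noncoding RNA genes held 499 desert sites (18.9%), against 15.8% of nearer intergenic and 10.9% of all shared regions. A start of such a gene lay within 500 bp at 3.37% of desert sites, against 4.48% and 4.76%.

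At least 50% of the bases were soft-masked at 76 sites (2.88%), against 1.81% of all shared regions and 2.78% of nearer intergenic ones. The share was 9.90% among all desert peaks of replicate 2 and 6.09% among those of replicate 1, and 0.873% without sites that have a copy. A near-identical copy elsewhere in the genome was found for 123 sites (4.66%), against 3.03% of nearer intergenic regions, and for 0 sites in mitochondrial DNA. Sites with a copy had median signals of 0.474 and 0.492. The labelled tissue was checked by promoter peaks in both libraries, which were found at 10 of 10 ovarian somatic genes, among them Foxl2, Nr5a1 and Gata4, and at 63% of all autosomal protein-coding genes. The other lists had 1 of 3 autosomal testis genes (Sox8), 0 of 4 liver, 1 of 4 lymphocyte (Lck), 1 of 3 skeletal muscle (Ckm) and 2 of 3 neuron genes (Snap25 and Syt1).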

How the data were processed

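DNase-seq peaks, footprints and cut-rate false discovery rates of 2 ovary libraries were used. Per the labels the build is mm10, and the deposited text notes derive each list from its own library, without pooling. Not given in the sources used here are the aligner, the callers and how CAST alleles were mapped. Peak signal was deposited by the authors as depth-scaled strength, in whole multiples (100% within 0.05 of a step) of 0.0108 in replicate 1 and 0.00782 in replicate 2, so absolute depth is unknown. The p-value columns that the authors deposited are a constant 0.01 label on footprints and the false discovery rates, below 0.001 in both libraries at 55.1% of desert sites and 67.1% of all shared regions.

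The longer lists of both libraries were merged, and 0 peaks extended beyond the chromosome ends of GRCm38.p6. Flanks are the nearest GENCODE M21 protein-coding genes. Promoter peaks lay within 500 bp of a start. Copies were BLAST matches of at least 90% identity over at least 80% of a site. Sequences came from RefSeq GRCm38.p6. Software was BLAST 2.17.0 and Python 3.11.15 with SciPy 1.17.1, pandas 2.3.3, Matplotlib 3.10.9 and NumPy 2.4.6. Overlap, position and sequence search were tested on simulated data.

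The sites, gene lists and sequences were chosen with earlier results of these data known. Named were the 10 highest-ranked sites by mean rank of signal, the 5 intervals with the most sites, the 3 farthest sites, the sites at the threshold and 10 intervals of the gonad list. Other sites, intervals and genes named were chosen after their values were seen. Among them are Kcnj2 to Sox9, Nyap2 to Irs1, the dense stretches at Rad51b and Runx1, and those in RefSeq genes and enhancers. The letters CTGGGAA were taken as the most repeated 7 letters of the printed Eipr1 to Myt1l sequence. Transcription factor families were taken by symbol stem followed by a digit or the end. No sequence is printed from chromosome 18, and 1 of the 10 highest-ranked sites is not reported here. The alternatives tried used the shorter lists, other overlaps, distances, windows and annotations, and each library alone.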

Additional observations from a re-analysis of the deposited data

How the results depend on the processing

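Of 83 recomputed values, 44 stayed within the error of the reported value, or within 1.5 times for the number of sites, and 39 moved. With the shorter lists there were 1321 sites, at a relative density of 0.126 (reported 0.162), a median signal of 0.866, footprints in both libraries at 83.6% and CTCF matches at 6.21%. A reciprocal overlap of 50% gave a median signal of 0.644, footprints at 67.4% and 50.8% of peaks found in the other library. A distance of 100 kb gave 5472 sites, a density of 0.222, a signal of 0.653, footprints at 66.1% and transcription factor flanks at 13.8%. A distance of 500 kb gave 500 sites, a density of 0.0771, a signal of 0.507, footprints at 53.0%, masked repeats at 4.20%, transcription factor flanks at 8.80% and 49.3% of peaks in the other library. Leaving out noncoding annotation gave a density of 0.124. Leaving out copies gave a density of 0.154 and masked repeats at 0.873%. For these 2 densities, sites were left out of the desert count only. The desert sequence and the regions outside deserts stayed as they were, so these densities could only fall. They do not compare deserts and the rest under the same exclusion. AP-1 shares were 8.21% in 100 bp and 16.0% in whole regions. Chosen after seeing the data, a letter after the family stem gave flanks at 17.3% (9.59% of the desert sequence). Leaving out RefSeq genes and antigen receptor loci, also chosen afterwards, moved no value beyond its error.

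With 1 library alone, the ranges were 4019 to 4858 sites, a density of 0.192 to 0.204 and a signal of 0.452 to 0.453. Footprints of that library lay at 52.9% to 67.2%. The reported share needed footprints in both libraries, so these values, counted as moved, are of another measure. At the 2642 shared sites, footprints of replicate 1 lay at 71.1% and of replicate 2 at 81.6%. Alone, the libraries also gave CTCF at 3.33% to 4.96%, AP-1 at 11.9% to 14.4%, masked repeats at 6.09% to 9.90% and transcription factor flanks at 13.8% to 15.2%. The share of peaks in the other library without copies was not run, since copies were searched for shared sites only. The causes of these moves were not tested. No paired analysis was possible because there is 1 group. A peak missing in 1 library may be an undetected site, and the part of depth in this was not tested.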

Other observations

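Some desert sites touched enhancers that were tested in mouse embryos by the VISTA project, as RefSeq annotates them. There were 11 such sites at 9 elements (0.416% of desert sites), against 0.930% of nearer intergenic and 0.536% of all shared regions. The strongest, chr6:93172181-93172440 between Adamts9 and Magi1, lies in an element annotated as active in heart and had a signal of 2.57 in replicate 1 and 4.02 in replicate 2. Another, chr15:62903081-62903300 in the Myc to Gsdmc desert, lies in an element annotated for the neural tube and had 2.40 and 3.21. A site near Sox4, chr13:28718301-28718629, lies in one annotated for neural tube and blood vessels, with 0.657 and 0.391. These annotations come from embryos, and no value here shows the same activity in the ovary.

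Several desert sites clustered closely. The 75.2 kb from chr12:79832727 to 79907920 between Rad51b and Zfp36l1, which encodes an RNA-binding protein of mRNA decay, held 12 sites, the strongest at chr12:79859701-79859960 with 4.10 and 7.49. Of these sites, 2 lie in the body of Rad51b as RefSeq annotates it, so they are desert sites only under GENCODE M21. In the strongest site without a copy, between Eipr1 and Myt1l, the letters CTGGGAA occur 3 times on the same strand. That sequence is at 9.12% of desert sites and 9.38% of all shared regions.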
